A study of Saccharomyces cerevisiae with 10 samples.

Results

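Purified isolates A and B of the diploid yeast strains HK10 and HK12 were compared SNP by SNP, isolate A against isolate B within each name. They are 4 of the 10 isolates of Saccharomyces cerevisiae in the series, each on 1 SNP microarray, and the titles of the samples (HK10 or HK12, isolate A or B) chose them. The series asks how RNase H2, which cuts DNA at embedded ribonucleotides, bears on genome stability. All 4 isolates are described as diploids of the background W303-1A crossed with YJM789, grown in rich liquid medium, and their DNA (Cy5) was hybridised together with DNA of the diploid JSC24 (Cy3) as the control. The labels give no genotype, treatment or age for HK10 or HK12. They call the isolates independent and do not say how A and B of a name are related. The background was the 4 pairs of isolates of different names (HK10 minus HK12), and the 6 zygotes of the series (4 from the cross of MD893-1 and 2 from that of MD893-2, each with LSY3454-2) served as heterozygous arrays. Each isolate has 1 array, so a difference between A and B has no replicate check and no p-value is given. Spreads below are over SNPs, not over replicates.

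In a hybrid diploid the parental chromosomes differ at many SNPs, and mitotic recombination can leave both homologs with the same allele, which is called loss of heterozygosity (LOH). As background, a crossover or break-induced replication makes a stretch homozygous from the exchange to the chromosome end (a terminal tract), and gene conversion makes a short internal stretch homozygous (an interstitial tract). Isolates picked under 1 name can carry tracts in common and tracts of their own. RNase H2 is known in yeast for the removal of ribonucleotides from DNA.

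For each SNP the measure d sets the mean log2 ratio of its S-letter probes minus that of its Y-letter probes, with the array median brought to 0. It lies near 0 at a heterozygous SNP, near 3 where only S is kept and near -3 where only Y is kept. The letters are those of the probe names and the labels do not define them. A hidden Markov model called each SNP heterozygous, S homozygous or Y homozygous, and a tract needed 5 SNPs. Positions are those of the probe names. Their build is not given in the sources used here, so no gene and no sequence is placed on them. Isolates HK10 A and HK10 B had 12882 and 12891 measured SNPs, with 12674 on both arrays. Isolates HK12 A and HK12 B had 12655 and 12778, with 12456 on both.

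Isolates A and B of a name carried the same call at most SNPs, and the greater part of these were heterozygous in both. Of the SNPs with the same call, 10501 of 12187 in HK10 and 10897 of 11795 in HK12 were heterozygous in both. The others, 1686 in HK10 and 898 in HK12, were homozygous for the same allele. Both numbers take in a Y tract of 9 SNPs on II, from 469650 to 474265. It was called in the zygotes of both crosses too and is left out of the counts of tracts. Pairs of zygotes of 1 cross had the same call at 99.95% to 100% of SNPs. In HK10 the calls were the same at 96.2% of the SNPs on both arrays and in HK12 at 94.7%, while the pairs of different names had the same call at 81.1% to 85.1%. Calls differed at 487 SNPs of HK10 (3.84%) and 661 of HK12 (5.31%), against 15.2% for HK10 A minus HK12 A, 14.9% for HK10 A minus HK12 B, 18.9% for HK10 B minus HK12 A and 18.7% for HK10 B minus HK12 B. A and B of HK10 differed in 1 stretch, on chromosome IV, of 711 kb or 6.15% of the assayed genome. A and B of HK12 differed in 2 stretches, on XII and XI, of 414 kb or 3.58% together. Pairs of different names differed in 20 or 21 stretches covering 12.8% to 19.0%. By the size of the difference alone, 517 SNPs of HK10 (4.08%) and 672 of HK12 (5.39%) lay more than 1.5 apart in d, the midpoint between the heterozygous and the homozygous level. In the pairs of different names, in the same order, the shares were 15.3%, 15.0%, 18.9% and 18.7%. In neither HK10 nor HK12 was any SNP homozygous for opposite alleles in A and B. HK10 A and HK10 B were each opposite to HK12 B, at 640 and 638 SNPs, and to HK12 A at 0.

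**Figure D1:**
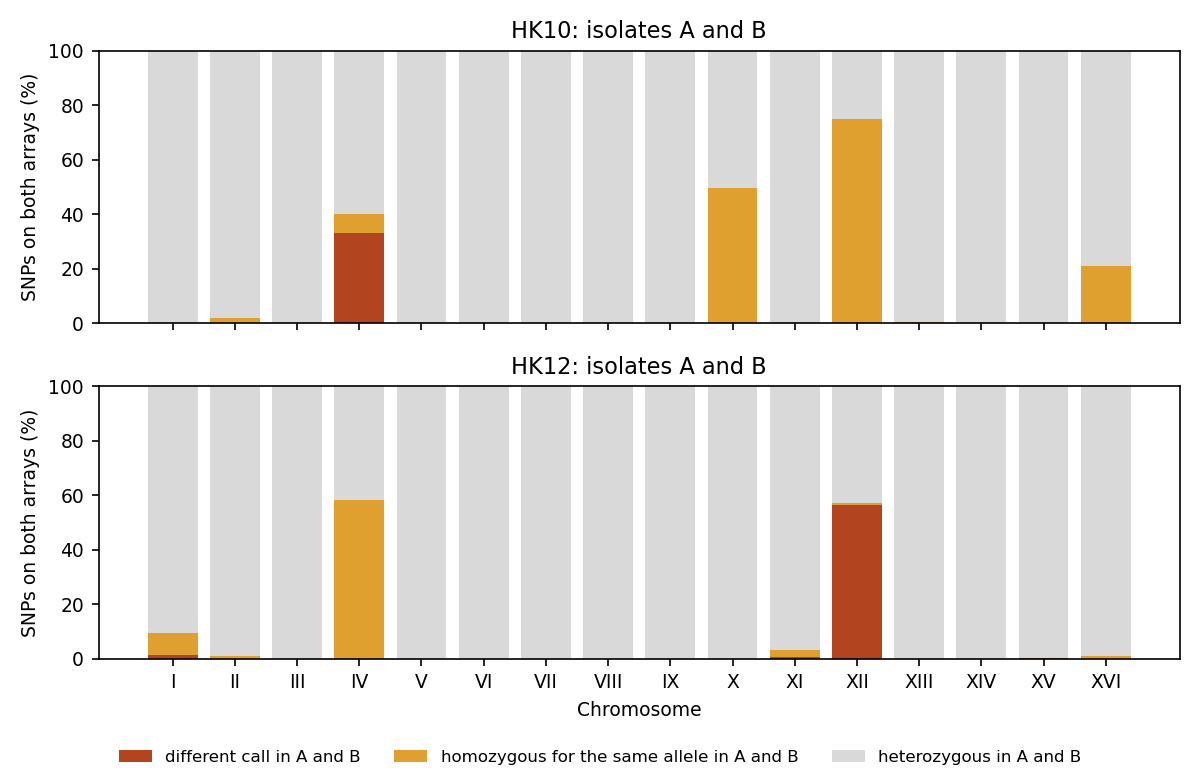
Share of the SNPs on both arrays (%, vertical axis) with a different call in A and B (red), the same homozygous call (yellow) or a heterozygous call in both (grey), for each of the 16 chromosomes of HK10 (top) and HK12 (bottom). Different calls fill 33.0% of chromosome IV in HK10 and 56.5% of chromosome XII in HK12.

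On chromosome IV, HK10 A was S homozygous from 726278 to the last SNP, while HK10 B stayed heterozygous as far as 1438183 and was S homozygous beyond 1441463. The stretch that differs held 484 SNPs on both arrays, from 726278 to 1432817. Calls made from these same d values chose it, as they chose the stretches on XII and XI below. That d stands apart between A and B in such a stretch, and in the same direction, thus follows largely from the choice. The F and R letters split the same probes, and the values are a description. The median d there was 3.34 in HK10 A and 0.05 in HK10 B, with d from 1.15 to 6.64 in A and from -0.76 to 0.87 in B, so the 2 arrays did not overlap. Of the 484 SNPs, 481 differed by more than 1.5, 3 differed by less and 0 differed that far in the opposite direction. The difference A minus B had a median of 3.31, with quartiles of 2.85 and 3.69. The F-letter probes alone gave 3.37 and the R-letter probes 3.26. In 5 successive parts of the stretch the median difference stayed between 3.19 and 3.41, with no part at an intermediate level.

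The allele levels show which allele was lost there. The S probes had a median log2 ratio of 0.50 ± 0.20 in HK10 A and -0.15 ± 0.19 in HK10 B (SD over 520 and 519 SNPs), against -0.17 in A and -0.15 in B at SNPs of the chromosome heterozygous in both. The Y probes stood at -2.85 ± 0.61 in HK10 A and -0.19 ± 0.20 in HK10 B (SD over 488 and 509 SNPs). Relative to those heterozygous SNPs the S allele of HK10 A was 0.67 higher, a 1.59-fold level, and the Y allele had changed by -2.68. HK10 A thus had more S signal and little Y signal where HK10 B had both.

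**Figure D2:**
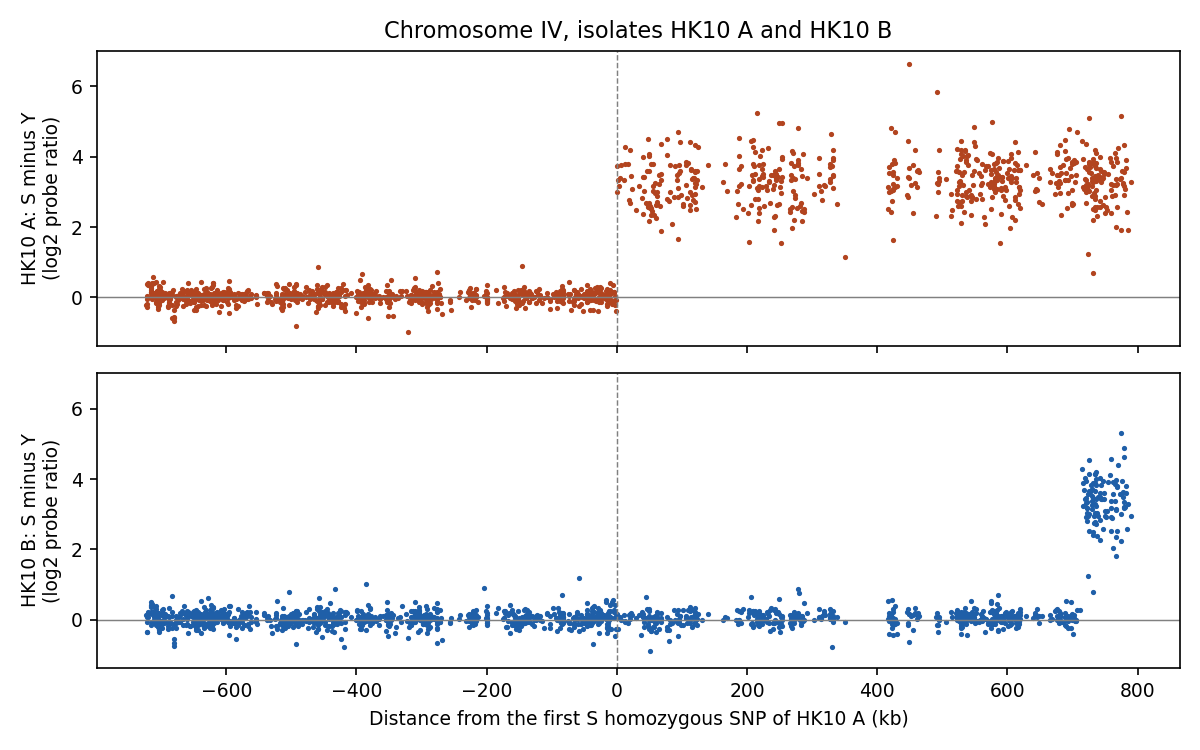
The difference d between the S and Y probes (log2, vertical axes) of each SNP of chromosome IV in HK10 A (top) and HK10 B (bottom), by distance in kb from the first S homozygous SNP of HK10 A (dashed line). HK10 A lies near 3.34 from that SNP to the end, and HK10 B stays near 0 and leaves it only in the last 73.8 kb of the map.

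The ends of these tracts were located to within a few kb. The left end of the HK10 A tract lies between 725453, where d was -0.39, and 726278, where it was 3.73, a window of 825 bp. The left end of the HK10 B tract lies between 1438183 (d of 0.27) and 1441463 (4.29), a window of 3280 bp. HK10 A had no value at 1438183. The first homozygous SNPs are 789 kb and 73.8 kb from the last SNP of the arm.

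To the right of 1441463 both isolates were S homozygous. Over those 106 SNPs the median d was 3.29 in HK10 A and 3.40 in HK10 B. HK10 A had no step there, at 3.34 to the left and 3.29 to the right. In the stretch where HK10 A and B differ, the HK12 isolates were S homozygous too, with a median d of 3.20 in isolate A and 3.07 in isolate B. HK10 B was therefore the one HK isolate heterozygous there. A few SNPs did not move although their tract was called, and these recurred between names. Over 568 SNPs of IV called S homozygous in HK10 A, HK12 A and HK12 B, d stayed under 1.5 at 3, 7 and 6 SNPs, of which 3 were shared by all 3 arrays.

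On chromosome XII, HK12 A was heterozygous and HK12 B was S homozygous from 665226 to the last SNP at 1058884. The stretch held 648 SNPs on both arrays and spanned 397 kb. The median d was -0.04 in HK12 A and 3.08 in HK12 B, and A minus B had a median of -3.12, with quartiles of -3.58 and -2.70. Over these SNPs d ran from -1.04 to 1.05 in HK12 A and from 0.86 to 4.74 in HK12 B, so the arrays overlapped between 0.86 and 1.05. The F-letter probes alone gave -3.17 and the R-letter probes -3.24. Of the 648 SNPs, 639 differed by more than 1.5, 9 by less and 0 as far in the opposite direction. In 5 successive parts the median stayed between -3.20 and -3.06. HK12 A had an absolute d under 1.5 at 673 of its 674 measured SNPs of this stretch, and HK12 B at 8 of 659.

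The S probes stood at -0.22 ± 0.17 in HK12 A and 0.42 ± 0.22 in HK12 B (SD over 695 and 703 SNPs), and the Y probes at -0.18 ± 0.19 in HK12 A and -2.67 ± 0.57 in HK12 B (SD over 682 and 660 SNPs). Relative to heterozygous SNPs of the chromosome the S allele of HK12 B was 0.65 higher, a 1.57-fold level, and the Y allele had changed by -2.47. For HK10 A on chromosome IV these changes were 0.67 and -2.68. The left end lies between 657904 (d of -0.43 in HK12 B) and 665226 (3.92). The array has no SNP in these 7322 bp. HK10 A and HK10 B were Y homozygous over the same stretch, with a median d of -3.35 and -3.40. The 4 isolates thus held all 3 states there, the opposite allele in HK10 from that in HK12 B.

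**Figure D3:**
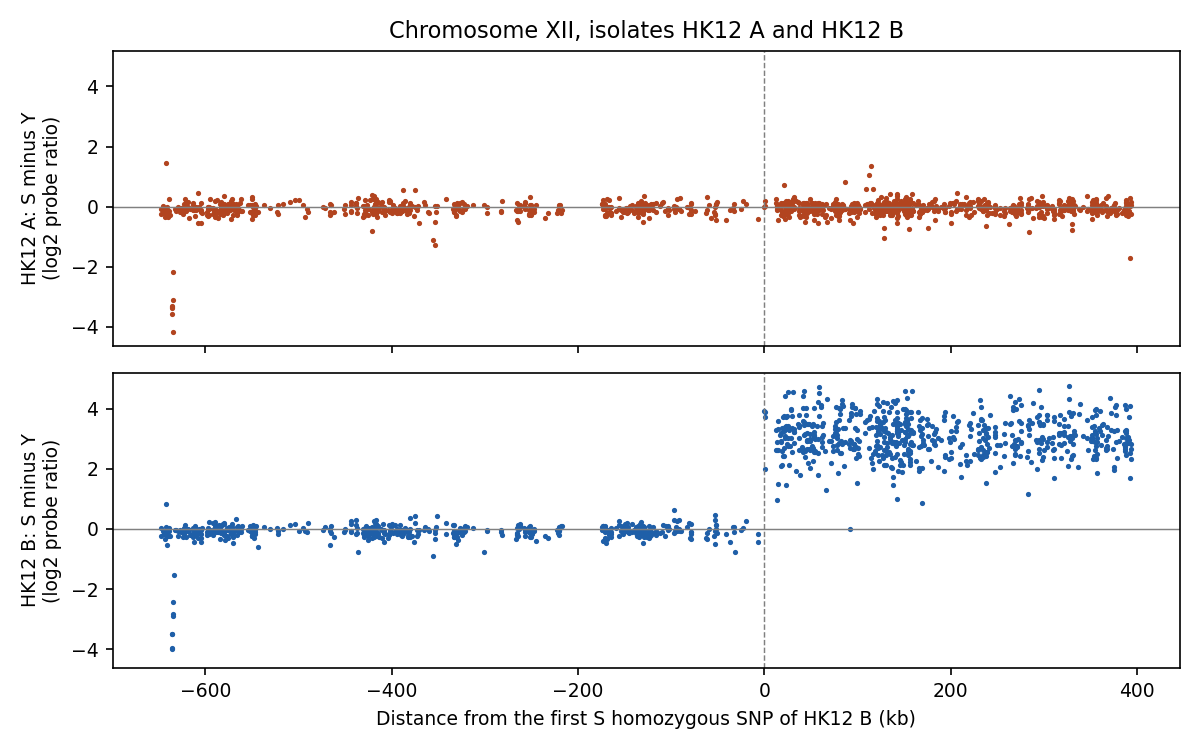
The difference d between the S and Y probes (log2, vertical axes) of each SNP of chromosome XII in HK12 A (top) and HK12 B (bottom), by distance in kb from the first S homozygous SNP of HK12 B (dashed line). HK12 A stays near 0 and HK12 B lies near 3.08 to the right of the line, while a short Y homozygous tract near the left end is present in both.

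The other stretch that differs in HK12 was interstitial and short, on chromosome XI from 257395 to 259919. At its 5 SNPs, in map order, d was -0.08, 0.11, 0.24, -0.22 and 0.05 in HK12 A. In HK12 B it was 3.08, 3.46, 2.68, 3.65 and 2.33. All 5 values of HK12 B lay above all 5 of HK12 A, which follows largely from the calls that chose the stretch. HK10 A (median 0.04) and HK10 B (0.12) were heterozygous there too. The S probes stood at 0.23 ± 0.18 in HK12 A and 0.78 ± 0.18 in HK12 B, and the Y probes at 0.11 ± 0.11 in HK12 A and -2.40 ± 0.70 in HK12 B (SD over 5 SNPs). The loss showed with either strand letter, at a median difference of -3.14 over 4 SNPs with F probes and -2.97 over 5 with R probes. Its right end lies within 1149 bp, between 259919 and 261068. Its left end is open over 27319 bp, since the array holds no SNP between 230076 and 257395. The tract is thus at least 2.52 kb long and 16.8 kb by the midpoints of its flanks.

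Probes without a value also differed between A and B in the 2 long stretches. They do not enter d, but a SNP with no value for an allele has no d, so they are not a separate readout. In the chromosome IV stretch, 130 of 1039 Y probes (12.5%) had no value in HK10 A and 55 (5.29%) in HK10 B. Of the 1033 S probes, 16 (1.55%) had none in HK10 A and 27 (2.61%) in HK10 B. In the chromosome XII stretch, 110 of 1395 Y probes (7.89%) had no value in HK12 A and 194 (13.9%) in HK12 B, while of the 1391 S probes 71 (5.10%) had none in HK12 A and 25 (1.80%) in HK12 B. The isolate with LOH thus had, in the IV and XII stretches, more missing probes of the lost allele and fewer of the kept one. In the short XI stretch 0 of 10 Y probes and 0 of 9 S probes were missing in HK12 A and in HK12 B, so it did not show this. In the rest of the genome, Y probes were missing at 6.60% in HK10 A and 7.44% in HK10 B, and at 9.93% in HK12 A and 8.41% in HK12 B. S probes were missing there at 4.33% in HK10 A and 4.61% in HK10 B, and at 5.11% in HK12 A and 4.06% in HK12 B. HK10 B and HK12 A thus had more missing S probes outside the stretches too. How features were filtered is not given in the sources used here.

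What A and B shared covered more of the genome than what differed. A and B of HK10 had 13 tracts in common, 4 for S and 9 for Y, of 1165 kb in A, and A and B of HK12 had 7, 3 for S and 4 for Y, of 1117 kb in A. No tract matched in both ends in any of the 4 pairs of different names. The further counted tracts of HK10 A, HK10 B and HK12 B were those that make the stretches of difference. The further one of HK12 A was a Y tract of 5 SNPs on I from 38493 to 40369, at 4 of which HK12 B had like values, as given further on, and no value at 38493.

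In HK10 the tracts in common lay on II, X, XII, XIII and XVI. Chromosome X had 6, in alternating blocks at its left: Y from the first SNP to 144725 (median d of -3.45 in A and -3.50 in B), S from 144874 to 170063 (3.13 and 3.26), Y from 171341 to 289211 (-3.35 and -3.28), S from 292292 to 299865 (3.74 and 3.42) and Y from 301002 to 304215 (-2.87 and -2.61), with a separate Y tract from 437739 to 442525 (-3.17 and -3.30). Adjoining blocks of opposite alleles met at the same SNPs in A and B by call. At 170063, the last SNP called in its S block, d lay near 0 in both, at 0.05 in A and 0.12 in B. Chromosome XII had a Y tract from 35225 to 42230 (-2.94 and -3.03), an S tract from 331220 to 340994 (3.31 and 3.39) and next to it the Y tract that reaches the last SNP. The others were Y on II from 285653 to 289315 (-3.32 and -3.21), Y on XIII from 806105 (-3.77 and -3.46), Y on XVI from the first SNP to 114409 (-3.52 and -3.48) and S on XVI up to 172113 (3.07 and 3.11).

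In HK12 the tracts in common lay on I, IV, XI, XII and XVI. Chromosome I had S tracts from the first SNP to 28735 in A and 28705 in B (median d of 3.46 in A and 3.41 in B) and from 41791 to 45688 (3.51 and 2.92). Chromosome IV had a Y tract from 208973 to 212240 (-3.07 and -2.83) and the S tract from 458195 to the last SNP. The others were Y on XI from 642427 to 650268 (-3.27 and -3.31), Y on XII from 28812 (-3.34 and -3.48) and Y on XVI from 110046 to 117156 (-3.10 and -3.07).

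The levels inside shared tracts lay close together. The absolute median difference per tract had a median of 0.0644 over the HK10 tracts, and its highest value was 0.136, over 4 SNPs of XIII. In HK12 the median was 0.168 and the highest 0.385, over the 5 SNPs from 41791 to 45688 on chromosome I. In the long Y tract of chromosome XII in HK10 the median d was -3.36 in A and -3.40 in B over 842 SNPs. In the long S tract of chromosome IV in HK12 it was 3.23 in A and 3.10 in B over 829 SNPs. Within shared tracts of HK10, d stayed under 1.5 in size at 18 of 1571 SNPs in both isolates, at 3 in A alone and at 6 in B alone. In HK12 the numbers were 4 of 889 in both, 5 in A alone and 6 in B alone.

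The ends of shared tracts coincided at the SNPs on both arrays, with 1 exception. Tracts were called shared only where both ends lay within 3 SNPs, so ends close together follow in part from that rule. It leaves out the S tracts of IV in HK10 A and HK10 B, which overlap and have different left ends. With ends allowed within 10 SNPs, the shared tracts again numbered 13 in HK10 and 7 in HK12. Leaving aside the chromosome ends, HK10 had 23 such ends and HK12 had 12. Where blocks adjoin on X and XII in HK10, their meeting point is counted as an end of each block, also in the window widths. The ends of HK10 are thus not all separate. At 20 and 10 of them the outermost SNP of the tract was the same SNP in A and B. At 3 of HK10 and 2 of HK12 it was not. At 4 of these 5 the difference came from a SNP with a value on 1 array alone, and the ends agreed over the SNPs on both arrays. One of these is the Y tract of XII in HK10, called from 342522 in A (d of -2.51) and from 343223 in B, which had no value at 342522. The right ends of the Y tract of XIII in HK10 (808173 in A and 808182 in B), of the S tract of I in HK12 (28735 in A and 28705 in B) and of the Y tract of XII in HK12 (30315 in A and 30918 in B) are the others. The first SNP of a chromosome differed in the same way on X in HK10 (24449 in A and 24461 in B) and on I in HK12 (2813 in A and 2880 in B). The window that holds an end, from both arrays together, had a median width of 1278 bp in HK10 and 1566 bp in HK12.

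The exception was the left end of the S tract of chromosome XVI in HK10, called at 142517 in A and at 143229 in B. At 142517 d was 2.67 in A and 1.69 in B, with -0.18 in HK12 A and -0.56 in HK12 B. At the following SNPs, 142532 and 142571, d was -0.43 and -0.13 in A and -0.16 and -0.25 in B, and at 143229 it was 3.69 in A and 3.38 in B. The SNP values of A and B thus had the same order of high and low, and the model's call differed. Further stretches of under 5 SNPs with different calls were on I (4 SNPs) and XV (4 SNPs) in HK12. On I, the 3 SNPs 38877, 39784 and 39908 had d of -3.60, -3.21 and -4.71 in A and -2.73, -3.11 and -4.01 in B. The fourth, 40369, lay near 0 in both, at -0.29 and -0.10. On XV the median d was 2.00 in A and 1.99 in B, and the zygotes, whose medians at these SNPs were 1.74 to 2.29, had that level too.

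SNPs outside the counted tracts were also listed where d lay past 1.5 the same way in A and B, while each measured isolate of the other name and the zygote median lay within 0.75 of 0. These limits were chosen after the values were seen, so that A and B share these SNPs and the other name does not is fixed by the choice, and the values are a description. The list held 8 SNPs of HK10 and 13 of HK12. At 59544 on IV, HK10 B had no value and HK10 A alone stood for the other name. The choice did not use the allele, and all 8 and all 13 lay toward Y. Most of them lie beside one another at a few sites, so they are not separate observations of the direction. The SNP 142517 on XVI, given above, lay toward S in HK10 A and HK10 B. It is not listed because it falls in a counted tract of HK10 A. In HK10 they were 4 SNPs on V from 139257 to 141767, 2 on VII at 924890 and 926456, and lone SNPs on II at 311594 and VIII at 422983. On VII, HK10 A had a further SNP of that level at 924015 (d of -2.51), which had no value in HK10 B. In HK12 they were 3 SNPs on II from 101678 to 102421, 3 on II from 693225 to 693567, 4 on IV from 57794 to 59544, 1 on IV at 215127 and 2 on XVI at 523431 and 523734. Beside the first of these sites, 101468 on II had d of -3.56 in HK12 A and -3.21 in HK12 B. It is not listed because HK10 B stood at 1.10 there, and HK10 A had no value. The median d over the 8 SNPs of HK10 was -3.36 in A and -3.52 in B, and over the 13 SNPs of HK12 it was -3.21 in A and -2.73 in B. At 4 of the 8 and 10 of the 13, both strand letters passed 1.5 in A and in B.

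**Figure D4:**
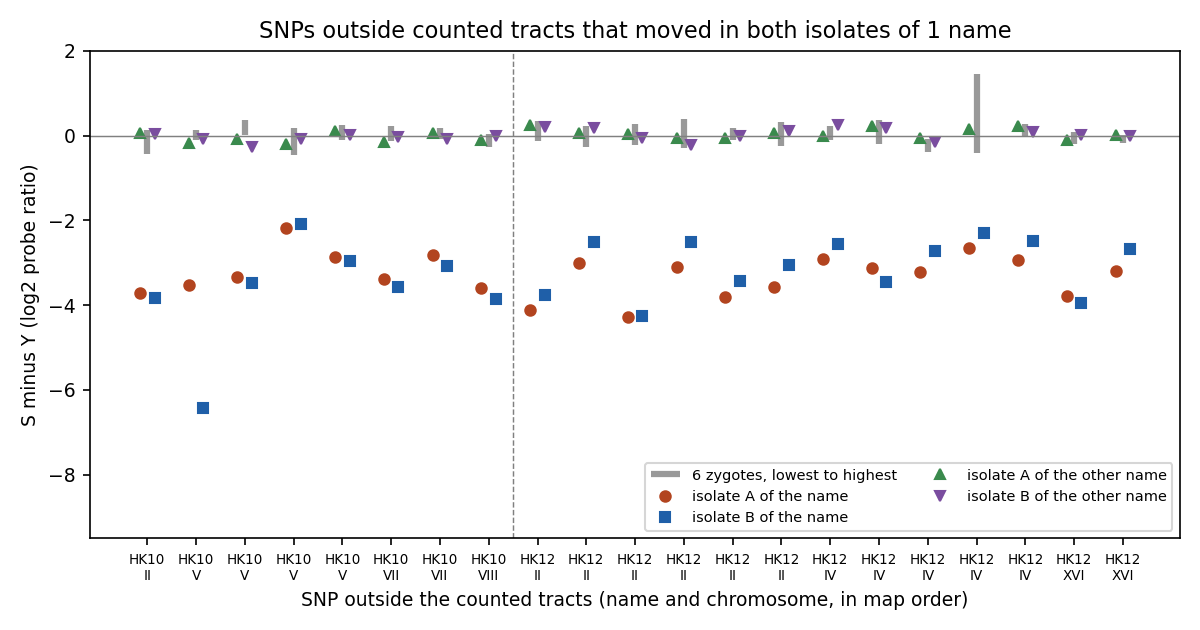
The difference d (log2, vertical axis) at the 8 SNPs of HK10 (left of the dashed line) and 13 SNPs of HK12 outside counted tracts that moved in both isolates of 1 name. Circles and squares are isolates A and B of that name, triangles the isolates of the other name, and grey bars run from the lowest to the highest zygote. The SNPs were chosen for the gap between the isolates of the name and the other arrays, and a reader should see that circles and squares lie within 0.586 of each other at all 21 SNPs but 139257 on V (-3.53 in A and -6.43 in B).

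Lone SNPs that differed between A and B had little support from a second probe. Outside the stretches above, 36 SNPs of HK10 and 28 of HK12 differed by more than 1.5. Of these, 10 of HK10 (0.0952% of the SNPs heterozygous on both arrays) and 14 of HK12 (0.128%) were heterozygous by call in both. The pairs of different names had 33 (0.33%) for HK10 A minus HK12 A, 33 (0.326%) for HK10 A minus HK12 B, 37 (0.371%) for HK10 B minus HK12 A and 41 (0.406%) for HK10 B minus HK12 B. The other 26 of HK10 (1.54% of the SNPs homozygous for 1 allele on both arrays) and 14 of HK12 (1.56%) lay inside shared LOH. In the pairs of different names, in the same order, 9 (1.51%), 7 (1.18%), 0 (0%) and 4 (3.2%) did. Where both strand letters could be read, 0 of 7 in HK10 and 1 of 7 in HK12 differed by more than 1.5 with each letter. In the pairs of different names 13 to 16 of 18 to 22 did. No 2 neighbouring SNPs differed the same way in HK10 or HK12, whereas the pairs of different names had 6 or 7 such runs. The pairs of different names also take in the short shared SNPs listed above, which set the names apart. In pairs of zygotes of 1 cross, 3 to 61 SNPs heterozygous in both (0.0225% to 0.511%) differed by more than 1.5. There, 0 to 3 lone SNPs differed with both letters and 0 runs were seen, so HK10 and HK12 lay within the range of the zygotes.

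The largest lone differences in HK10 lay inside shared Y tracts, at 266552 on X (d of -6.77 in A and -2.48 in B) and 657904 on XII (-6.33 in A and -2.13 in B). There the S probes stood at -6.19 and -5.77 in A and at -2.26 and -1.86 in B, low in both isolates. Next came 86503 on II, with d of 0.40 in A and 3.85 in B. Its Y probes stood at -0.45 in A and -3.81 in B and its S probes at -0.07 and 0.02, and with the F letter alone the difference was -3.73, while the R letter could not be read. At 139257 on V, one of the shared short SNPs, d was -3.53 in A and -6.43 in B, and at 265140 on XVI it was 2.90 in A and 0.48 in B. A SNP chosen after its values were seen, 484333 on X, differed with 1 letter alone. Its d was 0.05 in A and -2.09 in B, and the difference was -0.08 with the F letter and 4.36 with the R letter.

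In HK12 the largest were 1254695 on IV (d of 5.52 in A and 0.96 in B), 364227 on XI (2.70 and 0.00), 244772 on XVI (2.55 and 0.16), 1319266 on IV (5.74 and 3.38) and 696269 on IV (3.92 and 1.73). The 3 on IV lie in the shared S tract. The SNP that differed with both letters was 1012642 on IV, in the same tract, with d of 3.42 in A and 5.40 in B and differences of -1.87 with F and -2.08 with R.

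Signal over both alleles, s, is the mean log2 ratio of the S and Y probes against heterozygous SNPs of the array. As background it can follow the number of copies of a chromosome, and whether it does so in these arrays was not tested. At SNPs heterozygous in both isolates, A and B differed by at most 0.0232 on any chromosome in HK10 (chromosome I, s of 0.674 in A and 0.646 in B). In HK12 the highest difference was 0.0338 (chromosome VI, 0.652 in A and 0.621 in B). In the pairs of different names the highest difference per pair was 0.0182 to 0.0590, and in pairs of zygotes of 1 cross 0.00790 to 0.0387. Chromosomes I, VI and III had the highest s in each of the 4 isolates, III at 0.441 in HK10 A and 0.453 in HK10 B and at 0.483 in HK12 A and 0.457 in HK12 B. The other chromosomes followed in a graded series. In HK10 A, s was 0.267 on IX, 0.153 on VIII, 0.0546 on XI, -0.159 on IV and -0.193 on XII. The range of s over chromosomes was 0.867 in HK10 A and 0.837 in HK10 B, and 0.921 in HK12 A and 0.918 in HK12 B. Zygotes had a range of 0.0319 to 0.0725. Over all SNPs, LOH included, chromosome XII of HK12 differed by 0.588 (s of -0.195 in A and -0.801 in B) and at heterozygous SNPs alone by 0.0182. Chromosome IV of HK10 differed by -0.0678 and -0.0151 in the same order, XII of HK10 by 0.0479 and -0.00965, and X of HK10 by 0.0351 and -0.00145. In HK12, III differed by 0.0336 and VI by 0.0338 either way. Within LOH s is lower by its definition, since the low log2 ratio of the lost allele enters the mean. In the IV stretch s was -1.16 in HK10 A and -0.154 in HK10 B. The S probes of HK10 A stood at 0.50 there and its Y probes at -2.85. The differences over all SNPs, LOH included, are thus not read as a number of copies.

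**Figure D5:**
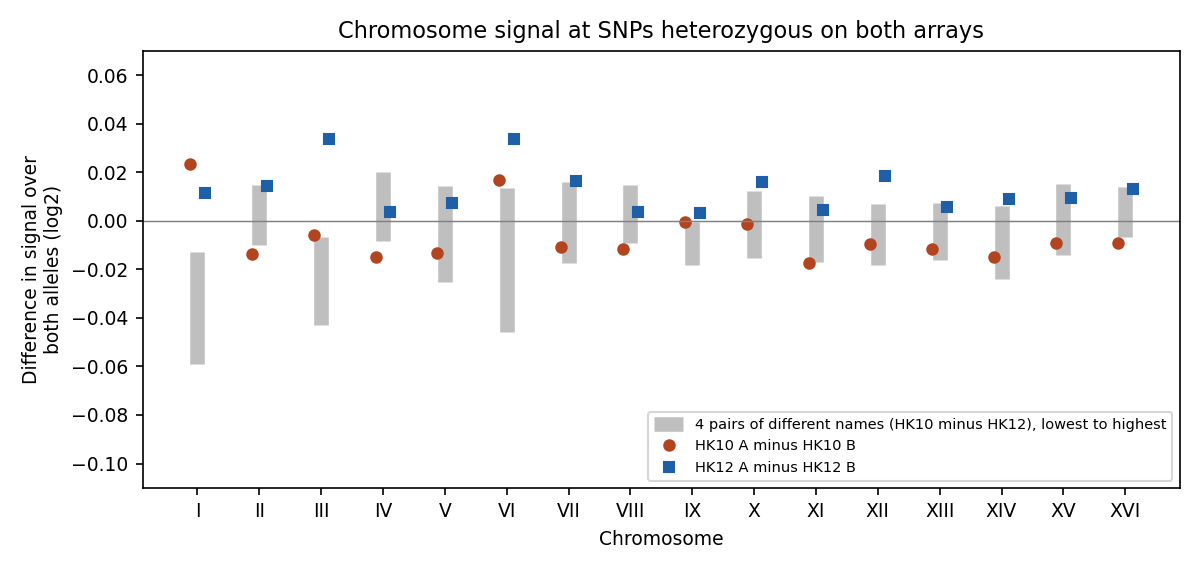
Difference in signal over both alleles (log2, vertical axis) for each chromosome, from SNPs heterozygous on both arrays, as HK10 A minus HK10 B (circles) and HK12 A minus HK12 B (squares). Grey bars run from the lowest to the highest of the 4 pairs of different names, and no circle or square lies farther than 0.0338 from 0.

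No stretch of intermediate difference was seen. Outside the stretches with different calls, the median of A minus B over any 11 neighbouring SNPs was at most 0.468 in size in HK10 and 0.535 in HK12, against 0.488 to 0.669 in the pairs of different names and 0.239 to 0.896 in pairs of zygotes of 1 cross. The spread of A minus B over SNPs heterozygous in both (the median absolute deviation, scaled as for a normal distribution) was 0.147 in HK10 and 0.213 in HK12, and 0.166 to 0.181 in the pairs of different names. As a description, Pearson's r of d across these SNPs was 0.554 between A and B of HK10 (10501 SNPs) and 0.419 in HK12 (10897 SNPs), 0.245 to 0.265 in the pairs of different names and -0.0453 to 0.514 in pairs of zygotes of 1 cross. The SNPs used for r take in the short shared SNPs listed above, 8 in HK10 and 13 in HK12. Runs under 5 SNPs count as heterozygous by call. The median d of these short shared SNPs was -3.36 in HK10 A and -3.52 in HK10 B. In HK12 it was -3.21 in A and -2.73 in B. Values that far from 0 in both arrays raise r within a name. The r without them was not computed, so the gap to the pairs of different names is not read further. All arrays share the same probes and control DNA. Whether arrays of a name were hybridised together is not given in the labels.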

How the data were processed

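Each of the 10 diploid isolates was assayed on 1 SNP microarray, per the labels' protocols. The deposited values are linear ratios of isolate (Cy5) to control JSC24 (Cy3) for 53664 probes, and each array's ratios have a mean near 1. For the feature filter, background correction and build, the steps were not given in the sources used here. Columns were matched to samples through the strain in the sample source. After log2 conversion the array median was subtracted. For 13461 SNPs, d (S minus Y probes) was set to a median of 0, and s to a median of 0 at heterozygous SNPs. Tracts came from a hidden Markov model (Student t emissions with 4 degrees of freedom, homozygous levels at 3 and -3 with a scale of 0.8, heterozygous noise of at least 0.1, state change probability 0.0001) and held at least 5 SNPs. Tracts on chromosomes II and XV that were called in all zygotes of a cross were left out of the counts of tracts. A stretch differed where at least 5 neighbouring SNPs on both arrays had different calls. Tracts were shared where the allele was the same and both ends lay within 3 SNPs. The pair comparison was run on simulated data with planted stretches, with SNP values drawn separately for A and B. Its pass mark covered planted stretches longer than 5 SNPs and not those of 5, the length of the XI stretch. Named items were every tract that differs, every shared tract, its ends at another SNP, the 5 largest lone SNP differences per pair and the 3 largest chromosome differences per pair. The pairs, measures and rules were chosen with earlier results of these data known. Python 3.11.15, numpy 2.4.6, scipy 1.17.1 and pandas 2.3.3 were used.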

Additional observations from a re-analysis of the deposited data

How the results depend on the processing

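The number of arrays, 1 a side, limits every comparison, and leaving out a replicate could not be run. No paired analysis was possible because A and B of a name have 1 array each and no replicate numbers pair them. Tracts under 5 SNPs and ends in gaps of the map are not resolved. Of 122 alternative values, 99 stayed within 1.5 times the count, or within the spread of the level. The kb that differ stayed between 711 and 732 in HK10 and between 397 and 414 in HK12. The chromosome IV and XII stretches were called under each alternative.

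The number of stretches that differ was 2 instead of 1 in HK10 with a minimum of 3 SNPs and with a state change probability of 0.01. The added stretches lay on XVI and had like median d in A and B (-0.13 and -0.16, and 2.63 and 2.73), so they differ by the call alone. In HK12 it was 1 instead of 2 with F probes alone, with all 4 probes required and with a minimum of 10 SNPs, since the XI tract of 5 SNPs then has too few. Shared tracts numbered 8 in HK10 and 4 in HK12 with a minimum of 10 SNPs, 11 in HK12 with a minimum of 3 and 3 in HK12 with all 4 probes. The minimum changes how short a tract may be, and requiring all 4 probes changes how many SNPs are measured. Lone SNPs depended on the threshold, at 113 in HK10 and 94 in HK12 with 1, and 12 and 8 with 2. They numbered 10 and 14 over heterozygous SNPs alone, and 0 and 1 with both strand letters. At heterozygous SNPs alone the chromosome signal A minus B was -0.0151 (IV), -0.00145 (X) and -0.00965 (XII) in HK10, the last 2 with a changed sign, and 0.0182 (XII) in HK12. The mean in place of the median gave -0.326 for IV in HK10. Against heterozygous SNPs of the whole array the S allele of HK12 B on XII stood at 0.425.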
